A study of Mus musculus with 28 samples.

Results

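Myl4, Myl7, Sln, Bmp10, Stard10 and Dkk3 are 6 genes whose transcripts are enriched in the atria of the mouse heart, and they were read here in libraries made from ventricular myocardium. They were taken by gene symbol from a table of raw counts with 45513 gene rows, each symbol matched 1 row, and all 6 passed the filter on low counts. Their levels are described library by library, over the 4 groups of mice, and against Nppa, the gene of atrial natriuretic peptide.

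The libraries came from 28 adult male C57BL/6 mice, 1 library per mouse. At 6 weeks of age the mice had either a 5/6 nephrectomy, which removes most kidney tissue and models chronic kidney disease (CKD), or a sham operation. On day 7 they were gavaged once with Oxalobacter formigenes (Oxf), a gut bacterium that degrades oxalate, or with its culture medium (vehicle), and every group ate a diet with 1% hydroxyproline, a source of oxalate, and 0.5% calcium. Sham-operated mice make up the sham-vehicle group of 10 and the sham-Oxf group of 5, and nephrectomised mice the CKD-vehicle group of 6 and the CKD-Oxf group of 7. The design names 10 mice for each, and those without a library were not analysed here. No library of atrial tissue is among the samples, so the levels below cannot be turned into a share of atrial tissue.

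Atrial and ventricular cardiomyocytes build the same contractile machinery from partly different genes. Myl7 and Myl4 encode the regulatory and the essential myosin light chain of atrial muscle, whereas Myl2 and Myl3 serve the ventricle. Sln encodes sarcolipin, a small membrane protein that slows the calcium pump of the sarcoplasmic reticulum and is kept in rodent atria. Bmp10 encodes a secreted ligand of the BMP family that binds the endothelial receptor ALK1 and is made in the adult heart mainly by the right atrium. Stard10 encodes a phospholipid transfer protein, and Dkk3 a secreted glycoprotein of the Dickkopf family. Nppa is high in atrial muscle throughout life, and in the ventricle it falls after birth and is switched on again under load. A rise of Nppa in a ventricular sample is widely read as a marker of hypertrophy or wall stress, which is why its relation to genes of atrial muscle bears on how it is read.

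The promoters of Myl7, Myl4, Bmp10 and Nppa are shown first, and whether their motifs bear on the levels was not tested. RefSeq promoter entries (build GRCm38.p6) were found for 5 of the 7 genes looked up, and none for Sln and Dkk3. That of Stard10 held 0 matches and is not printed. The 150 bases before each start are given 5′ to 3′ on the strand of the gene, in lower case, with capitals for matches to 5 motifs.
Myl7 (chr11:5898783-5898932, minus strand): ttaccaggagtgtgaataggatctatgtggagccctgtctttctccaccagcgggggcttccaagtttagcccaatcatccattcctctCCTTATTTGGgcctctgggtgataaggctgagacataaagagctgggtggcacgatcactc
Myl4 (chr11:104550513-104550662, plus strand): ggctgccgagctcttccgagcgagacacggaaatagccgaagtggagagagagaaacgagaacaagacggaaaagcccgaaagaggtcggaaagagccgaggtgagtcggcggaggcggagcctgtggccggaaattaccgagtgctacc
Bmp10 (chr6:87428844-87428993, plus strand): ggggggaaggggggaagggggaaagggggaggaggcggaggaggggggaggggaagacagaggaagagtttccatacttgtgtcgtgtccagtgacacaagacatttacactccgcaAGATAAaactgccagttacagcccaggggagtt
Nppa (chr4:148000572-148000721, plus strand): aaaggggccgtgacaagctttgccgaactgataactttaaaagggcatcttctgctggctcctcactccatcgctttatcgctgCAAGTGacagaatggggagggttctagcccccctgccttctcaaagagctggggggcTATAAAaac
The capitals mark a CArG box, the site of serum response factor, in Myl7 at -61 to -52 from the start. They mark the GATA motif AGATAA in Bmp10 at -33 to -28, and in Nppa the NKX2-5 motif CAAGTG at -66 to -61 and the TATA motif TATAAA at -9 to -4. Myl4 held no match in these bases. Of the 32851 promoters in the table, 1.47% held a CArG box within 250 bases before the start on either strand, 9.99% held AGATAA, 11.6% CAAGTG, 11.8% the T-box motif AGGTGT and 12.4% TATAAA. That window is longer than the bases shown, and in it Myl7 held 2 matches, Bmp10 2, Nppa 3 and Myl4 0. The 5 motifs do not overlap in the bases shown, and a match describes letters only.

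On the GRCm38 build (GENCODE M21), Myl7 lies at chr11:5896637-5898782 on the minus strand, Myl4 at chr11:104550663-104595753, Sln at chr9:53850164-53854560, Bmp10 at chr6:87428994-87437677, Stard10 at chr7:101317086-101346626 and Dkk3 at chr7:112116017-112159057 on the minus strand. All 6 are protein-coding, and the table gives 1 count per gene, with no exons apart. Myl4 overlaps 4 annotated genes on the opposite strand, and Stard10 overlaps the antisense gene Gm20476 and, on its own strand, the pseudogene Gm45344. Nppa (chr4:148000722-148002079) overlaps the antisense gene Gm13054. The use of strand in counting is not given in the sources used here, so reads of such partners cannot be told apart.

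Library totals ran from 19798965 to 65378162 counts. In sham-Oxf replicate 1, the library of lowest total, 15879 genes had a count, against 27128 to 33995 in the others. The 7SL RNA copies Rn7s1 and Rn7s2 took 1.83% to 20.98% of all counts. Of the markers of the labelled tissue, the ventricular gene Myl2 lay between 225 and 1994 CPM (counts scaled to a common library size with TMM factors) and Tnnt2, cardiac troponin T of all chambers, between 1821 and 4135 CPM. In sham-vehicle replicate 1, Myl7 had more counts than Myl2. CPM is a level, and CPM of different genes were compared only after division by the merged exon length in kilobases. On that scale the median library held 621 CPM per kb of Nppa, 440 of Myl2, 378 of Myl7, 68.2 of Myl4, 41.2 of Bmp10, 33.9 of Dkk3, 31.1 of Sln and 23.7 of Stard10. Nothing in the labels says which chamber walls or septa each sample took, and in bulk tissue fewer cells of a type and less RNA per cell cannot be told apart.

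Myl7, the regulatory light chain of atrial muscle, was present in every library but varied 113-fold between them. In sham-vehicle it ran from 28.5 to 623 CPM with a median of 237 CPM, and in CKD-vehicle from 193 to 586 CPM with a median of 272 CPM. In sham-Oxf its 5 values were 133, 138, 309, 11.8 and 172 CPM, and in CKD-Oxf it ran from 5.50 to 289 CPM with a median of 234 CPM. Sham-vehicle replicate 3, sham-Oxf replicate 4 and CKD-Oxf replicate 5 stood apart at the low end, each under 30 CPM. The other 25 libraries lay at 85.0 CPM or above, and the ranges of the 4 groups overlapped. The mean of sham-vehicle was 264 ± 181 CPM (SD, n = 10) and that of sham-Oxf 153 ± 106 CPM (n = 5). After nephrectomy it was 347 ± 173 CPM (n = 6) with vehicle and 203 ± 94.8 CPM (n = 7) with Oxf. The lowest library still held 202 counts of Myl7, so counting error was small beside this spread.

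Myl7 was also set against its ventricular counterpart, as a ratio that the spread of either gene can move. Per 100 counts of Myl2, the ventricular regulatory light chain, a library held between 0.418 and 189 counts of Myl7, with a median of 29.3. Myl2 itself varied 8.85-fold and Tnnt2 2.27-fold. In the 3 libraries of lowest Myl7, Myl2 was 1707, 1035 and 1318 CPM and Tnnt2 was 3752, 3204 and 3261 CPM, all within the range of the other libraries. The ratio of 189 came from sham-vehicle replicate 1, which combined high Myl7 (427 CPM) with the lowest Myl2 of all libraries (225 CPM).

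Myl4, the essential light chain of atrial muscle, followed Myl7 closely. It ran from 32.5 to 615 CPM in sham-vehicle (median 294) and from 247 to 649 CPM in CKD-vehicle (median 373). In sham-Oxf it was 196, 176, 425, 18.4 and 313 CPM, and in CKD-Oxf it ran from 8.85 to 404 CPM (median 324). The same 3 libraries were the lowest for Myl4 and Myl7, and the groups overlapped. The count of Myl4 per count of Myl7 moved only between 0.946 and 1.82, with a median of 1.35, while each gene on its own varied 73.4-fold and 113-fold.

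Sln, the sarcolipin gene, varied 121-fold. It ran from 5.61 to 94.0 CPM in sham-vehicle (median 39.5) and from 39.3 to 102 CPM in CKD-vehicle (median 66.1). In sham-Oxf it was 19.0, 22.3, 52.1, 1.62 and 28.6 CPM, and in CKD-Oxf it ran from 0.844 to 52.1 CPM (median 25.8). The lower end of CKD-vehicle overlapped the upper end of both Oxf groups, and again the same 3 libraries were lowest. Sln gave between 10.0 and 32.4 counts per 100 counts of Myl7. Of the related calcium-pump genes, Atp2a2, the cardiac pump itself, did not share this pattern (Spearman rho with Myl7 0.14 over the 28 libraries, group means removed), nor did phospholamban (Pln, rho 0.05), its regulator in the ventricle.

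Stard10 varied least, 13.3-fold over all libraries. It ran from 15.7 to 89.3 CPM in sham-vehicle (median 50.5) and from 40.9 to 88.2 CPM in CKD-vehicle (median 53.8). In sham-Oxf it was 33.8, 31.0, 107, 9.78 and 56.4 CPM, and in CKD-Oxf it ran from 8.04 to 88.2 CPM (median 63.9). The highest single value was in sham-Oxf replicate 3, and the 3 lowest values were again in the libraries of lowest Myl7. Dkk3 varied 44.6-fold. It ran from 25.7 to 227 CPM in sham-vehicle (median 131) and from 79.2 to 214 CPM in CKD-vehicle (median 148). In sham-Oxf it was 63.8, 73.4, 192, 10.9 and 119 CPM, and in CKD-Oxf it ran from 5.09 to 202 CPM (median 92.0). The groups overlapped for Stard10 and for Dkk3, and CKD-Oxf replicate 5 was the lowest library for both.

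**Figure D1:**
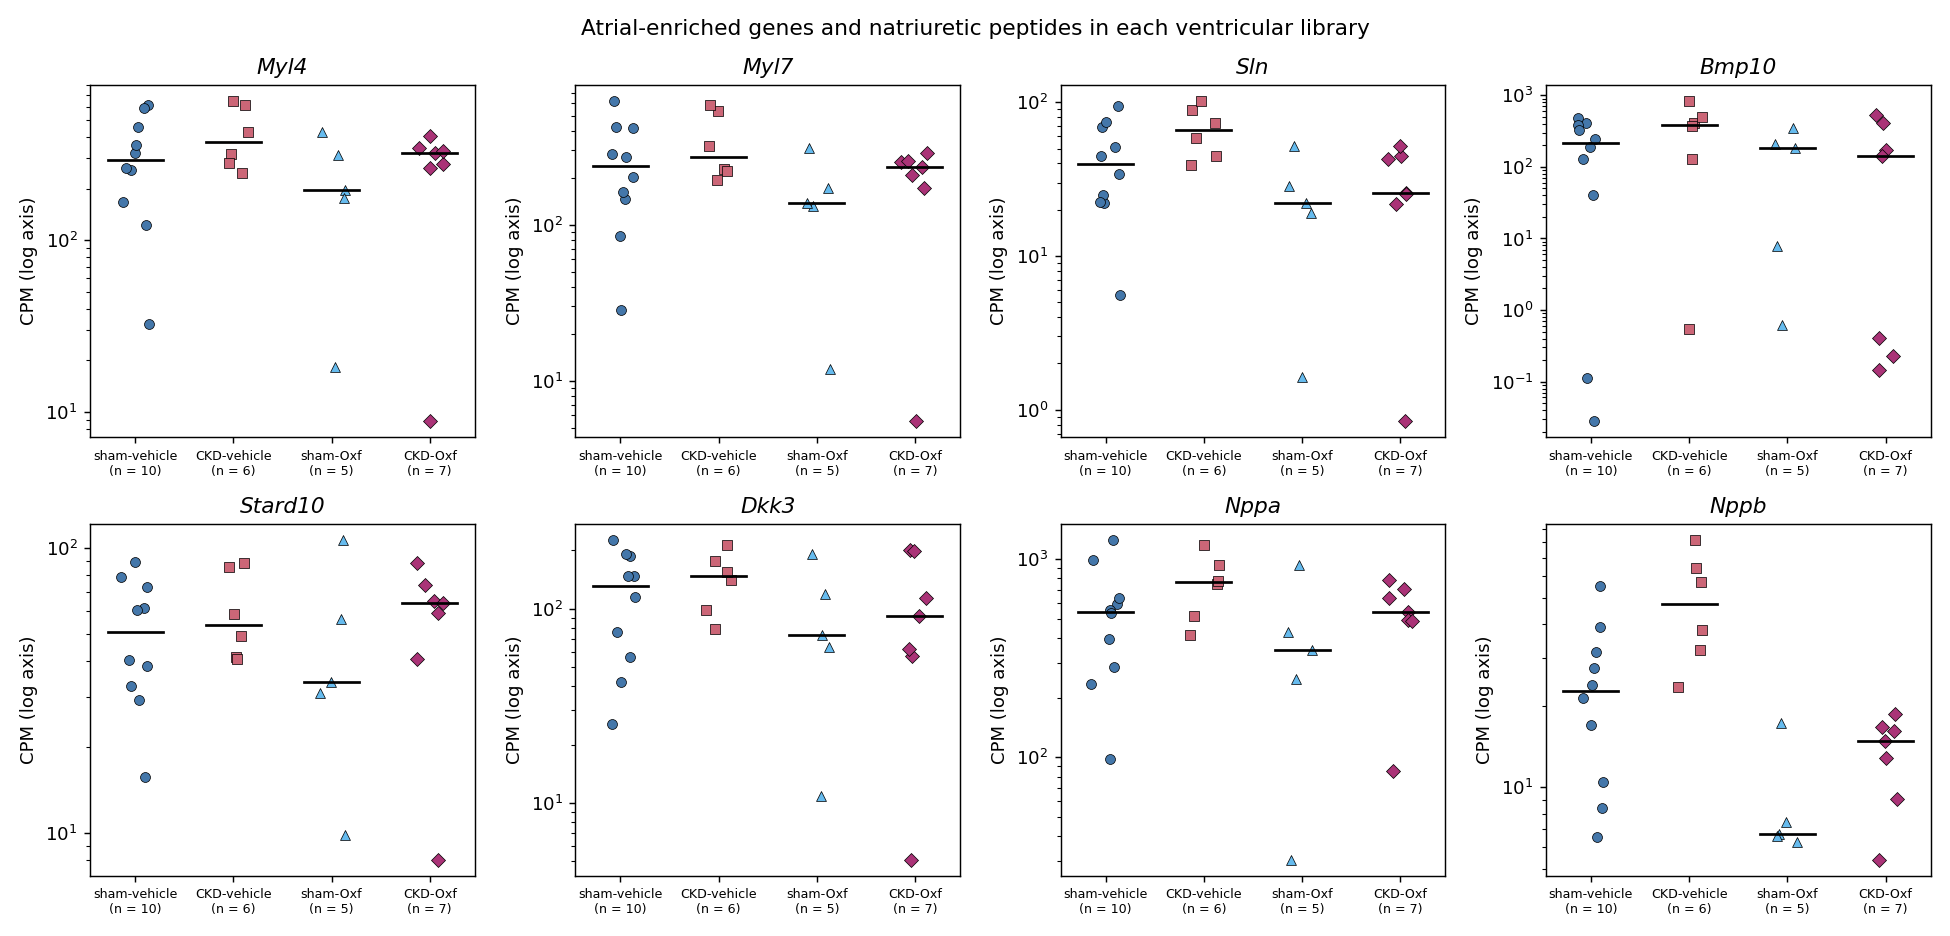
Levels of the 6 genes, Nppa and Nppb (CPM, log axes) in each library by group, with a point per mouse and a bar at the group median. The lowest points for Myl7 are 28.5 CPM (sham-vehicle), 11.8 (sham-Oxf) and 5.50 (CKD-Oxf), and Bmp10 splits into 7 libraries under 1 CPM and 20 of at least 40.8 CPM with 1 library between.

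Bmp10, the ligand of the list, behaved otherwise, in that it was nearly absent from some libraries that held ample Myl7. It was under 1 CPM in 7 libraries, was 7.79 CPM in sham-Oxf replicate 2, and lay between 40.8 and 835 CPM in the other 20. The 7 low libraries held 1 to 26 counts of Bmp10 each, and the 20 high ones 1344 to 30635. Low libraries were found in every group. They were 2 of 10 in sham-vehicle and 1 of 5 in sham-Oxf, and after nephrectomy 1 of 6 with vehicle and 3 of 7 with Oxf. Of all 24273 genes tested, Bmp10 had the largest standard deviation of log2 CPM within groups, at 4.61, against 0.55 for the median gene.

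Among the 7 libraries low in Bmp10, Myl7 ranged over nearly the whole span of the study. CKD-vehicle replicate 2 held 586 CPM of Myl7, the second-highest value of all, with 0.542 CPM of Bmp10. Replicates 3 and 6 of CKD-Oxf held 254 and 172 CPM of Myl7 with 0.231 and 0.145 CPM of Bmp10, and replicates 4 and 8 of sham-vehicle 146 and 202 CPM with 0.0281 and 0.111 CPM. Only sham-Oxf replicate 4 and CKD-Oxf replicate 5 were low in both genes. In the opposite direction, CKD-vehicle replicate 3 gave 369 counts of Bmp10 per 100 counts of Myl7, the highest ratio, and sham-vehicle replicate 4 the lowest, 0.0192. Sham-vehicle replicate 3, one of the 3 libraries of lowest Myl7, held 40.8 CPM of Bmp10.

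The genes most like Bmp10 over the libraries were not those most like the other 5. Hamp, which encodes the iron-regulating hormone hepcidin, came first (Spearman rho 0.92, group means removed), followed by Etv1, an ETS transcription factor of fast-conducting myocardium, and Vwf, the endothelial von Willebrand factor. Hamp stood between 0 and 0.975 CPM in the 7 libraries low in Bmp10, and above that in 20 of the other 21, up to 12.6 CPM. Etv1 lay between 9.92 and 17.2 CPM in those 7 and was higher in 18 of the other 21, and Vwf lay between 89.2 and 144 CPM and was higher in 17 of the other 21. Vwf and Etv1 thus changed by degrees where Bmp10 was present or nearly absent. Of the genes that receive the Bmp10 signal, the co-receptor gene Eng lay between 143 and 256 CPM over all libraries, and whether the pathway genes differ with Bmp10 was not tested. These genes were picked by likeness over the same libraries, so the ranges are a description with no test.

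**Figure D2:**
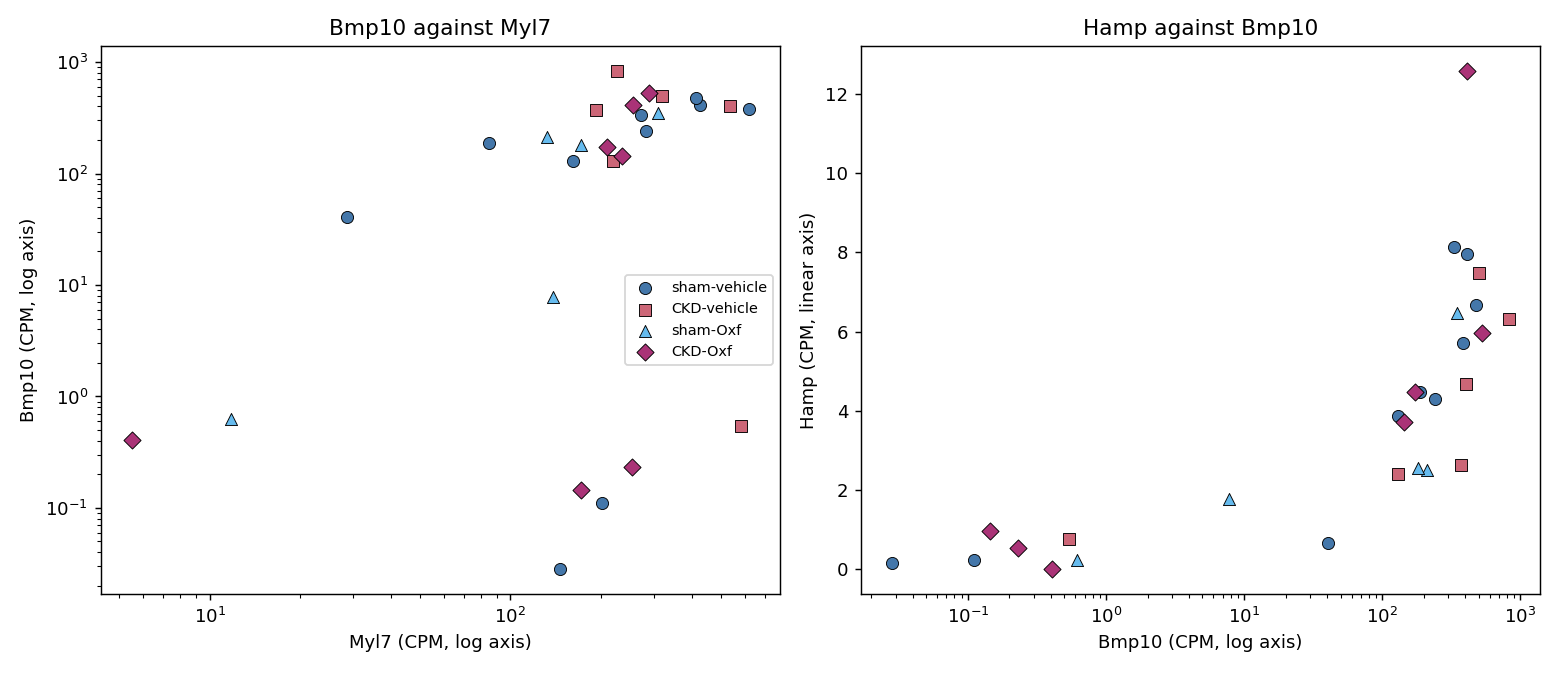
Left, Bmp10 against Myl7 (CPM, log axes), and right, Hamp (CPM, linear axis) against Bmp10 (CPM, log axis), with a point per library coloured by group. The 7 libraries with Bmp10 under 1 CPM span Myl7 from 5.50 to 586 CPM, and Hamp lies at 0.975 CPM or below in all 7 of them.

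To see how far the genes of atrial muscle vary together, log2 CPM were compared between libraries after each group's mean had been subtracted, so that group differences play no part. Myl4, Myl7, Sln, Stard10 and Dkk3 rose and fell together. Over their 10 pairs Pearson's r ran from 0.913 (Myl7 with Dkk3) to 0.993 (Myl4 with Myl7), and each permutation p was 1e-05, the smallest that 100000 draws can give, or 1.5e-05 after Benjamini-Hochberg adjustment over 15 pairs. Without CKD-Oxf replicate 5 and sham-Oxf replicate 4, the libraries farthest from the median, r ran from 0.768 to 0.978 for the same 2 pairs. Bmp10 was compared only in the 20 libraries where it reached 10 CPM, a limit set on its own level. There its r ran from 0.735 with Stard10 to 0.894 with Dkk3, and these values do not cover the libraries left out. They leaned on the 2 libraries farthest from the median, of which sham-vehicle replicate 3 was 1 in each pair. Without those 2, r was 0.478 with Stard10, 0.515 with Myl7, 0.576 with Myl4, 0.647 with Sln and 0.820 with Dkk3. Over all 28 libraries the rho of Bmp10 with Myl7 was 0.58.

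Within groups the standard deviation of log2 CPM was 1.53 for Myl7, 1.49 for Sln, 1.47 for Myl4, 1.30 for Dkk3 and 0.94 for Stard10. Myl7 ranked 350 of 24273 genes by this measure, and Tnnt2, with 0.29, ranked 19294. A common line on log2 Myl7 took up 98.5% of the within-group variance of Myl4, 95.8% of that of Sln, 92.7% for Stard10 and 83.4% for Dkk3. For Bmp10, over all 28 libraries, it took up 14.2%. The slope was 0.96 for both Myl4 and Sln, 0.78 for Dkk3 and 0.60 for Stard10, so that a doubling of Myl7 went with less than a doubling of Stard10. Stard10 and Dkk3 thus kept more of their level in libraries of low Myl7 than Myl4 and Sln did.

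The genes nearest to Myl7 were Myl4 (rho 0.98), Pam (0.94) and Stard10 (0.94), and for Myl4 they were Myl7, Mybphl (0.97) and Pam (0.95). Pam encodes the amidating enzyme that is the main membrane protein of atrial secretory granules, and Mybphl a myosin-binding protein of atrial and conduction tissue. Stard10 came nearest to Aldh1b1 (0.96), a mitochondrial aldehyde dehydrogenase, to Pam (0.96) and to Myl4 (0.95). Sln and Dkk3 both came nearest to Gpx3, the secreted glutathione peroxidase, at 0.96 and 0.95, and Dkk3 was also near Tbx20 (0.93), a cardiac T-box factor. Of the 13906 genes compared, 46 reached a rho of 0.8 with Myl7, 46 with Myl4, 58 with Sln, 47 with Stard10, 96 with Dkk3 and 11 with Bmp10. The values describe likeness over 28 libraries that share depth and composition, and carry no p.

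Other marker lists were read the same way, as rho with Myl7. Of 11 further genes enriched in atria, 6 reached 0.8, and they were Pam (0.94), Mybphl (0.94), Sbk2 (0.93), Kcnj3 (0.83), Gja5 (0.83) and Kcnj5 (0.82), named after their values were seen. The others stayed below, with Nr2f2 at 0.68, Tbx5 at 0.60, Nr2f1 at 0.41, Cacna1d at 0.28 and Hey1 at 0.09. Kcnj3 and Kcnj5 form the acetylcholine-gated potassium channel of atrial myocytes, and Gja5 encodes connexin 40. Of 6 ventricular genes 0 reached 0.8 and the median was -0.15. The lowest among them was Irx4, a ventricular transcription factor, at -0.65, while Myl2, Myl3 and Myh7 lay between -0.18 and -0.11. Of 6 genes of all cardiomyocytes 0 reached 0.8, with a median of 0.01.

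Markers of tissues next to the atria moved partly with Myl7. The 5 mesothelial and epicardial genes had a median rho of 0.71, led by Msln (mesothelin, 0.80) and with Wt1 at 0.24, and their summed level was 29.4 to 97.2 CPM for sham-vehicle, 36.3 to 85.5 for CKD-vehicle, 23.2 to 98.5 for sham-Oxf and 19.4 to 129 for CKD-Oxf. The 5 valve genes had a median of 0.64, with Fmod (fibromodulin) at 0.78 and Cilp2 at 0.69, and summed levels of 26.9 to 96.9, 29.6 to 70.4, 14.5 to 87.4 and 9.07 to 63.7 CPM in the same order of groups. The 6 genes of the sinoatrial node had a median of 0.35, 5 fat genes 0.25, 5 smooth muscle genes 0.12 and 8 skeletal muscle genes, 1 of which did not pass the filter, 0.08. Chad, of the valve list, was at 0 in 1 library, and Adipoq, the defining fat gene, in 1. In 6 liver genes the median was -0.03 and in 5 lung genes 0.04, though only 5 and 2 of them passed the filter. In a list of 12 genes, made up of myosin light chain genes and the kinase gene Mylk3, besides Myl4 only Myl1 exceeded 0.8 (0.84). Myl1 encodes a light chain of fast skeletal muscle and embryonic heart. The part of these tissues in the levels of the 6 genes was not tested.

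**Figure D3:**
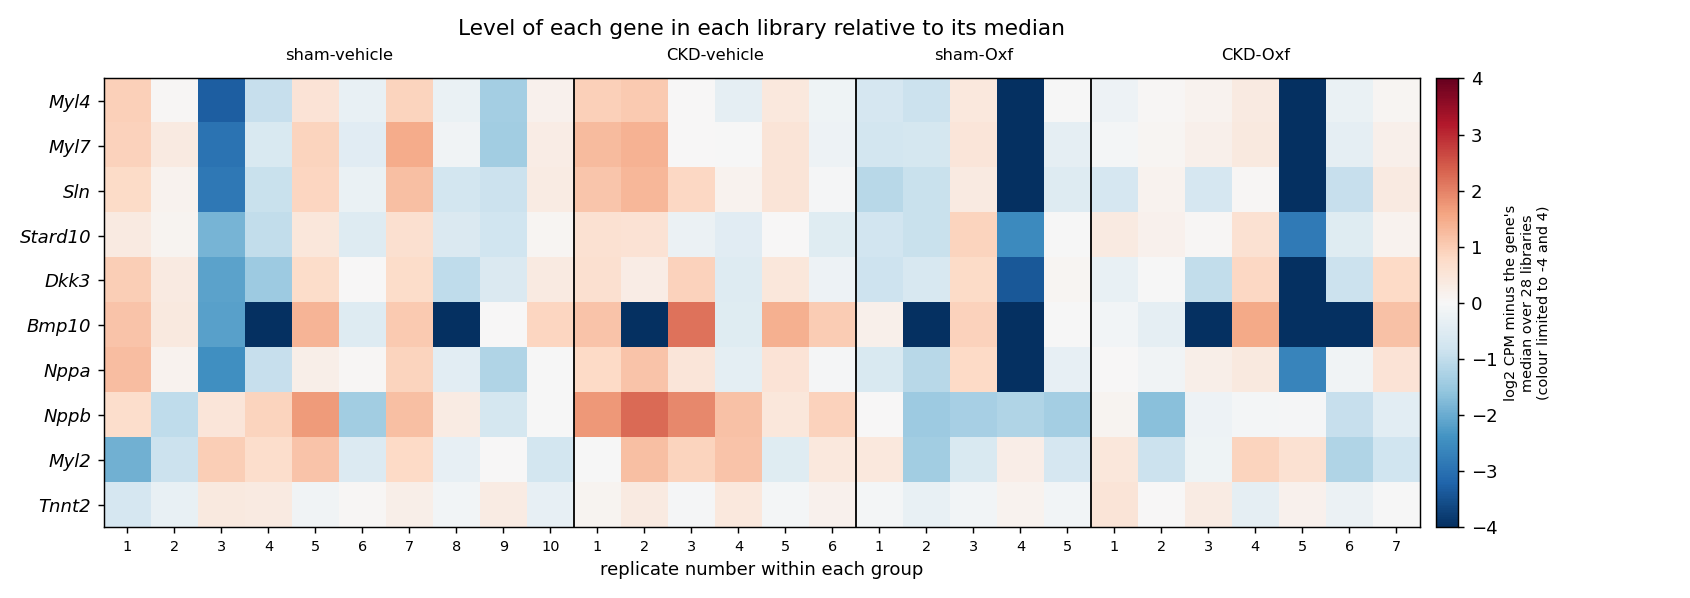
Log2 CPM of each gene minus its median over the 28 libraries (colour, limited to -4 and 4), with genes in rows and libraries in columns by group and replicate number. Myl4, Myl7, Sln, Stard10, Dkk3 and Nppa are low together in sham-vehicle replicate 3, sham-Oxf replicate 4 and CKD-Oxf replicate 5, where Myl2 and Tnnt2 are above their medians. Bmp10 is below its median there and also low in other libraries. Nppb is 23.9, 7.43 and 16.7 CPM in these libraries, against a median of 17.1.

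Order of mouse number, library total and 7SL share were checked against Myl4, Myl7, Sln, Stard10 and Dkk3 in the 3 groups with at least 6 libraries. Of 45 relations, 2 had an unadjusted permutation p below 0.05 and 0 did after adjustment, with a smallest adjusted p of 0.875. Both were with the mouse number in CKD-vehicle, where Sln gave r = -0.911 (rho -0.886, exact permutation p = 0.0194, n = 6) and Stard10 r = -0.844 (rho -0.829, exact p = 0.0472, n = 6). Without the 2 libraries farthest from the median mouse number, r was -0.789 for Sln and -0.179 for Stard10, so the latter rests on those libraries. Each group is its own block of mouse numbers, and the vehicle mice end at 920 where the Oxf mice begin at 921. A check within groups therefore cannot tell a group difference from mouse order, which was not tested. The mean 7SL share was 9.78% (sham) and 13.6% (CKD) with vehicle. With Oxf it was 4.14% and 8.81% in the same order, and its part in group differences was not tested.

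Nppa varied 41.2-fold over the libraries. In sham-vehicle it ran from 97.9 to 1255 CPM with a median of 542 CPM, and in CKD-vehicle from 413 to 1186 CPM with a median of 767 CPM. In sham-Oxf it was 348, 248, 933, 30.4 and 429 CPM, and in CKD-Oxf it ran from 85.6 to 781 CPM with a median of 540 CPM. The 3 lowest Nppa levels of the study, 30.4, 85.6 and 97.9 CPM, were those of the 3 libraries of lowest Myl7, and the next was 235 CPM in sham-vehicle replicate 9, the next in Myl7 too. The groups overlapped.

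Each member was then related to Nppa over the libraries with group means removed. Pearson's r was 0.949 for Myl4 (rho 0.932), 0.937 for Myl7 (rho 0.923), 0.937 for Sln (rho 0.871), 0.939 for Stard10 (rho 0.907) and 0.908 for Dkk3 (rho 0.829). Each had a permutation p of 1e-05, the smallest the draws can give, and 1.2e-05 after adjustment over the 6 members. Without CKD-Oxf replicate 5 and sham-Oxf replicate 4, the 2 libraries farthest from the median, r was 0.952, 0.926, 0.914, 0.907 and 0.844 in the same order, so the relation did not rest on those libraries. Bmp10, in the 20 libraries chosen by its own level, gave r = 0.798 (rho 0.728, permutation p = 0.00024), and 0.658 without the 2 farthest. That relation holds for those libraries only.

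Within single groups of at least 6 libraries, 14 of 15 relations of the 5 genes to Nppa had an adjusted permutation p below 0.05 by Pearson's r, and 11 of 15 by Spearman's rho. In sham-vehicle (n = 10) r lay between 0.923 for Dkk3 and 0.976 for Myl4 and stayed at 0.841 or above without the 2 farthest libraries. In CKD-vehicle (n = 6) it was 0.933 for Myl4, 0.929 for Sln, 0.905 for Stard10 and 0.862 for Myl7 (adjusted exact permutation p from 0.0179 to 0.0446). Without the 2 farthest libraries these were 0.884, 0.907, 0.874 and 0.637 in the same order. Dkk3 in CKD-vehicle was the exception among the 15 by Pearson's r, at 0.730 (exact p = 0.103). It was -0.702 without CKD-vehicle replicates 4 and 6, on which its relation rests. In CKD-Oxf (n = 7) r was 0.952 to 0.986, and much of that lay in replicate 5: without it and the next farthest library r was 0.717 for Myl7, 0.611 for Myl4, 0.553 for Dkk3, 0.268 for Sln and 0.132 for Stard10. The rank correlations in CKD-Oxf were 0.929 for Myl7, 0.857 for Myl4, 0.750 for Sln, 0.714 for Dkk3 and 0.607 for Stard10, and the adjusted exact permutation p of the last 3 was 0.0828, 0.102 and 0.179. No correlation was computed within the 5 sham-Oxf libraries, since 6 was the minimum set.

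**Figure D4:**
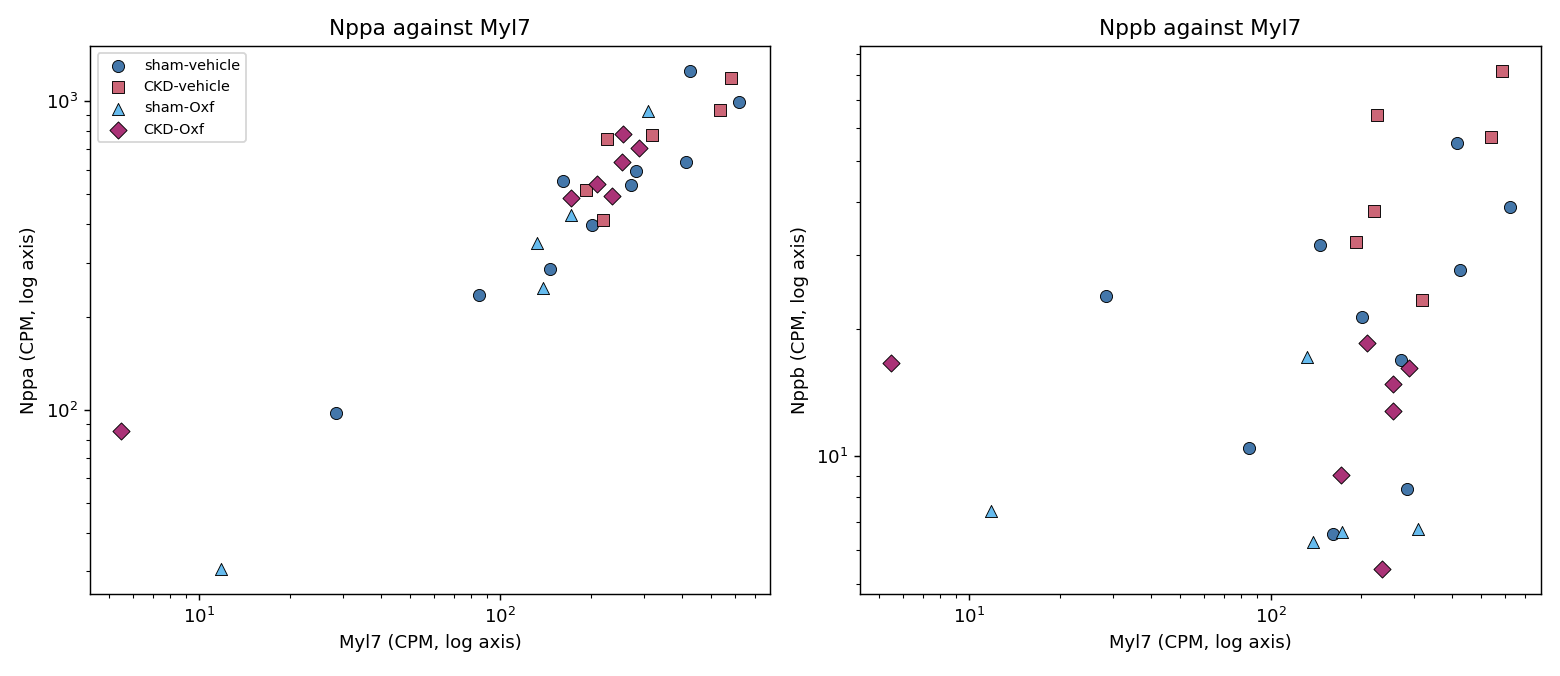
Nppa (left) and Nppb (right) against Myl7, all in CPM on log axes, with a point per library coloured by group. Nppa climbs with Myl7 from 30.4 CPM at 11.8 CPM of Myl7 to between 934 and 1186 CPM in the 3 libraries of highest Myl7, with CKD-Oxf replicate 5 above the trend at the far left, whereas Nppb shows no such climb.

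On the linear scale a line through the 28 libraries gave 1.77 ± 0.178 (SE) CPM of Nppa per CPM of Myl7 and an intercept of 130 ± 51.7 CPM, the fitted Nppa at no Myl7. Fitted within groups, the slope was 1.67 ± 0.345 for sham-vehicle, 1.46 ± 0.357 for CKD-vehicle, 3.07 ± 0.379 for sham-Oxf and 2.26 ± 0.334 for CKD-Oxf. The intercept was 117 ± 109 CPM, 259 ± 136, -72.1 ± 68.2 and 73.1 ± 73.9 CPM in the same order, so the level of Nppa at no Myl7 was not settled, and differences between the slopes were not tested. The libraries held between 1.53 and 15.6 counts of Nppa per count of Myl7, with a median of 2.49. The ratio of 15.6 was that of CKD-Oxf replicate 5, where 3144 counts of Nppa met 202 of Myl7, and all other libraries lay at 3.43 or below. A common line on log2 Myl7 took up 87.8% of the within-group variance of log2 Nppa, and the standard deviation within groups fell from 1.16 to 0.42. For Nppb, the gene of brain natriuretic peptide, which the ventricle makes under load, the same line took up 0.907%, and the standard deviation was 0.79 before and 0.80 after. Nppa, but not Nppb, thus went with the atrial genes from library to library in the same mice. In order of likeness Nppa came nearest to Pam (rho 0.95), Aldh1b1 (0.94) and Myl4 (0.93), and 32 genes reached 0.8.

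Whether the groups differ in these genes was asked with edgeR's quasi-likelihood test over all 24273 genes that passed the filter, in 7 contrasts. A gene is called at a Benjamini-Hochberg adjusted p under 0.05. In CKD-vehicle against sham-vehicle 0 of the 6 genes were called, where 0.00824% of all genes were. For sham-Oxf against sham-vehicle it was 0 of 6 (background 0%), for CKD-Oxf against CKD-vehicle 0 of 6 (0.033%) and for CKD-Oxf against sham-Oxf 0 of 6 (0%). The interaction of surgery and gavage gave 0 of 6 (0%), surgery averaged over gavage 0 of 6 (0%) and gavage averaged over surgery 0 of 6 (2.81%). At an unadjusted p under 0.05, edgeR gave 1 of 6, Sln, for gavage averaged over surgery, where 23% of all genes passed that level, and 0 of 6 in the other 6 contrasts. DESeq2 and limma voom also called 0 of the 6 in each contrast, and at an unadjusted p under 0.05 each gave 1 for gavage averaged over surgery and voom 1 for CKD-Oxf against CKD-vehicle. Where edgeR called no gene of the whole table, 3054 genes had an unadjusted p under 0.05 in sham-Oxf against sham-vehicle, 1997 in CKD-Oxf against sham-Oxf, 862 in the interaction and 2579 for surgery averaged over gavage. DESeq2 called 133, 100, 0 and 103 genes there, and voom 34, 0, 0 and 126. For gavage averaged over surgery DESeq2 called 2133 genes and voom 5336, for CKD-Oxf against CKD-vehicle 202 and 3639, and for CKD-vehicle against sham-vehicle 29 and 93.

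The list shared its signs in the pairwise comparisons. All 6 were higher in CKD-vehicle than in sham-vehicle, with a median log2 fold change of 0.40 against -0.03 over all genes tested. Sln had 0.62 ± 0.54 (SE; edgeR adjusted p = 0.955), Myl4 0.41 ± 0.54, Myl7 0.39 ± 0.56, Dkk3 0.25 ± 0.52, Stard10 0.22 ± 0.40 and Bmp10 0.76 ± 1.35. Only the estimate of Sln exceeded its own error, and none passed the test against the spread between mice.

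Gavage of sham-operated mice went with lower values for all 6, with a median of -0.53 against -0.04 over all genes. Sln stood at -0.84 ± 0.61 (edgeR adjusted p = 0.593), Myl7 at -0.79 ± 0.63, Bmp10 at -0.56 ± 1.49, Myl4 at -0.50 ± 0.59, Dkk3 at -0.40 ± 0.57 and Stard10 at -0.13 ± 0.43. In CKD mice the median was -0.69 against 0.03, with Sln at -1.15 ± 0.60 (edgeR adjusted p = 0.408), Bmp10 at -1.05 ± 1.48, Myl7 at -0.77 ± 0.61, Myl4 at -0.60 ± 0.59, Dkk3 at -0.47 ± 0.56 and Stard10 at -0.09 ± 0.43. These comparisons share libraries with the one before, and Stard10 turned to 0.13 in sham mice without sham-Oxf replicate 4 and to 0.11 in CKD mice without CKD-Oxf replicate 5. Between CKD-Oxf and sham-Oxf all 6 were higher, with a median of 0.28, values from 0.18 for Dkk3 to 0.41 for Myl7, and adjusted p-values of 0.938 or above. Here the sign of Bmp10, Dkk3 and Stard10 changed when single libraries were left out.

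Averaged over surgery, gavage gave Sln -0.998 ± 0.43 (edgeR p = 0.0275, adjusted p = 0.162), Bmp10 -0.80 ± 1.06, Myl7 -0.78 ± 0.44, Myl4 -0.55 ± 0.42, Dkk3 -0.43 ± 0.40 and Stard10 -0.11 ± 0.31. The median was -0.67 against 0.00 over all genes. Averaged over gavage, surgery gave a median of 0.38, with Sln at 0.46 ± 0.42 (edgeR adjusted p = 0.724) and Myl7 at 0.40 ± 0.43. For the interaction 2 of the 6 were positive and 4 negative, with a median of -0.08 against 0.07 over all genes. The 6 genes are few and move as a block, so these medians describe the libraries rather than 6 separate observations.

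**Figure D5:**
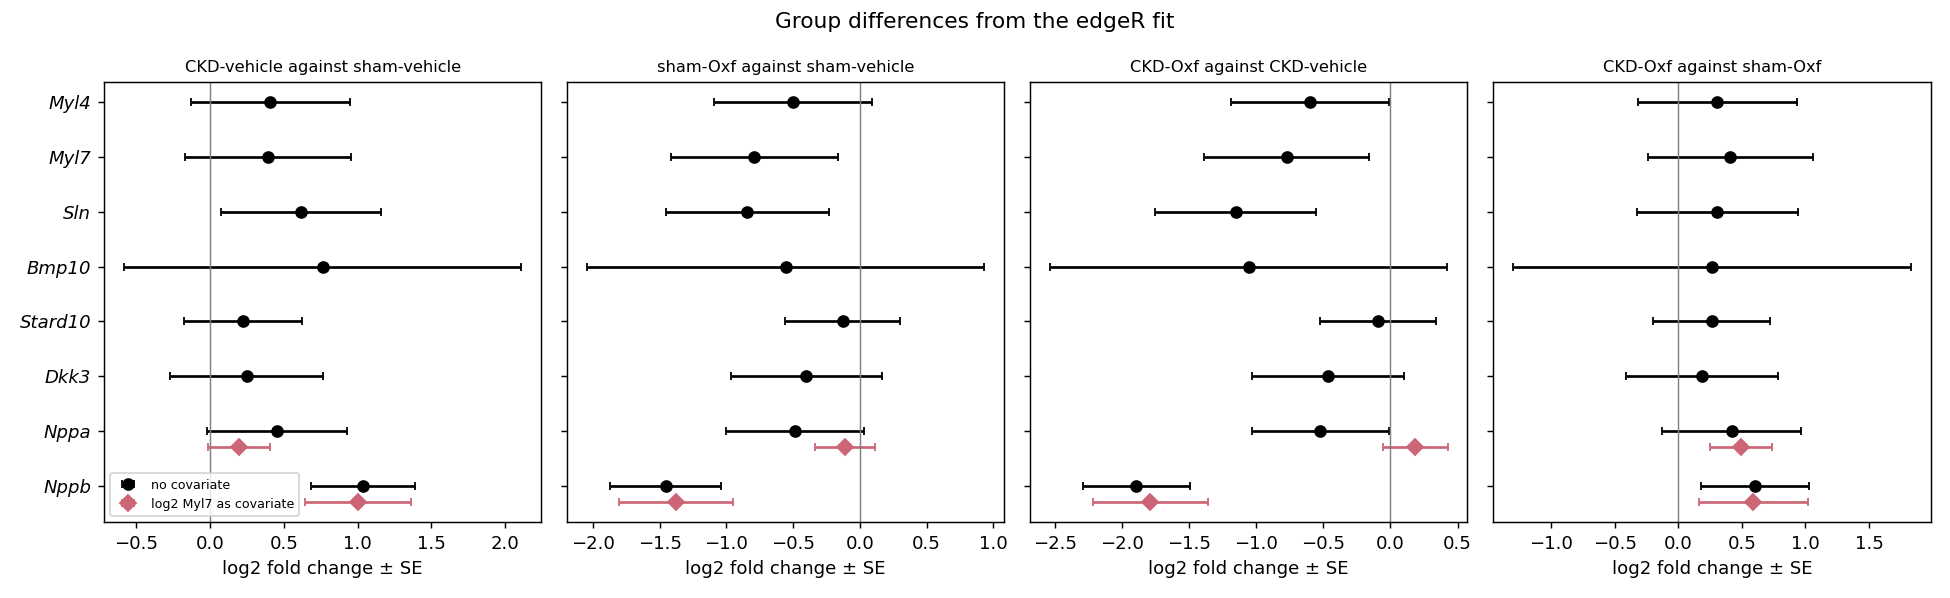
Log2 fold changes (points) with their standard errors (bars) from edgeR for the 6 genes, Nppa and Nppb in the 4 pairwise comparisons, without a covariate (black circles) and, for Nppa and Nppb, with log2 CPM of Myl7 as covariate (red diamonds). The errors of Nppa shrink with the covariate, from 0.47 to 0.21 in CKD-vehicle against sham-vehicle, and those of Nppb do not.

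Nppa was then compared between groups without and with the log2 CPM of Myl7 as a covariate, which sets libraries side by side at equal Myl7. Without it Nppa stood at 0.45 ± 0.47 in CKD-vehicle against sham-vehicle, at -0.49 ± 0.52 in sham-Oxf against sham-vehicle, at -0.52 ± 0.51 in CKD-Oxf against CKD-vehicle and at 0.42 ± 0.55 in CKD-Oxf against sham-Oxf. None of the 4 was called, with edgeR adjusted p-values of 0.955, 0.739, 0.681 and 0.917. All 6 members had the sign of Nppa in each comparison, but their sizes differed. They ran from 0.22 (Stard10) to 0.76 (Bmp10) in the first comparison and from -0.84 (Sln) to -0.13 (Stard10) in the second. In the third they ran from -1.15 (Sln) to -0.09 (Stard10), and in the fourth from 0.18 (Dkk3) to 0.41 (Myl7).

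With Myl7 in the fit the differences of Nppa in these comparisons were 0.20 ± 0.21, -0.11 ± 0.22, 0.18 ± 0.24 and 0.49 ± 0.24. The 2 gavage comparisons moved towards 0, and that in CKD mice changed sign, whereas the surgery comparison under Oxf kept its size with a smaller error (edgeR p = 0.0511, adjusted p = 0.591). Averaged over surgery, gavage moved from -0.50 ± 0.36 to 0.04 ± 0.17. Averaged over gavage, surgery went from 0.44 ± 0.36 to 0.34 ± 0.16 (edgeR p = 0.0378, adjusted p = 0.435), so Nppa was not called in any of the 7 contrasts with or without the covariate. The covariate fit was not repeated without CKD-Oxf replicate 5 or sham-Oxf replicate 4, the libraries of lowest Myl7, so their weight was not tested. They held 15.6 and 2.58 counts of Nppa per count of Myl7, and the group median was 2.58 in CKD-Oxf and in sham-Oxf. Myl7 is itself a measured outcome of these libraries, and a covariate of this kind also removes whatever Nppa and Myl7 share through the groups.

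Nppb differed from Nppa here as well. For gavage averaged over surgery its log2 fold change was -1.67 ± 0.29 (edgeR adjusted p = 0.00539), and with Myl7 as covariate -1.58 ± 0.32 (edgeR adjusted p = 0.0274). In sham mice alone gavage gave -1.45 ± 0.42 (edgeR adjusted p = 0.186), and in CKD mice -1.89 ± 0.40 (edgeR adjusted p = 0.0966). With the covariate the edgeR adjusted p-values were 0.254 and 0.208, so neither pairwise gavage comparison called Nppb. Its mean with vehicle was 24.1 ± 15.1 CPM (SD, n = 10) after sham operation and 49.5 ± 22.1 CPM (n = 6) after nephrectomy. With Oxf it was 8.86 ± 4.69 CPM (n = 5) and 13.4 ± 4.66 CPM (n = 7). In the gavage contrast, 681 genes were called over the whole table without the covariate and 81 with it, and 20 when the 3 libraries of lowest Myl7 were left out. Every Oxf mouse has a higher number than every vehicle mouse, so the calls of the gavage contrast, Nppb included, cannot be told from mouse order. From the marker lists, the same contrast without the covariate called Tnni3, cardiac troponin I, at -0.72 ± 0.19 and Tnni2, fast skeletal troponin I, at -3.78 ± 0.92 as lower. It called Alb, the liver gene of albumin, at 2.67 ± 0.69 and Stard3, a cholesterol transfer protein related to Stard10, at 0.39 ± 0.09 as higher (edgeR adjusted p-values from 0.0327 to 0.0447). Of these 4, Tnni2 had the highest rho with Myl7, 0.43. Its mean level was 1.48 CPM, with a range of 0 to 18.8 CPM. Alb ranged from 0.104 to 69.6 CPM. For Alb, gavage gave 0.84 ± 0.89 in sham mice and 4.51 ± 1.12 in CKD mice, so the average does not describe both.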

How the data were processed

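RNA from PBS-perfused, frozen ventricular myocardium was sequenced on a NovaSeq instrument, per the labels' protocols. The authors deposited raw counts per gene as 1 table. The submitters' processing notes name mm10, STAR 2.6.1d, Subread featureCounts 1.6.3, FastQC 0.11.7 and MultiQC 1.9. Their settings, the annotation and the use of strand are not given in the sources used here. Of 45513 gene identifiers, 45465 were found in GENCODE M21, used for positions and exon lengths, and 1532 rows had no count. No 2 libraries had identical counts.

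Counts were fitted in R 4.3.3 with edgeR 4.0.16 (TMM factors, filterByExpr by group with a minimum count of 10, robust quasi-likelihood F test), 1 fit of 4 group means over 28 libraries. The standard error of a fold change was taken from its size and the root of its F statistic. Alternatives were DESeq2 1.42.0, voom with sample weights (limma 3.58.1), scaling by DESeq2 size factors, other filters, fits of the compared groups alone, Myl7 as covariate and leaving out each library. The fit was tested on simulated data. CPM uses TMM-scaled totals, and log2 CPM a prior count of 2. Correlations used 100000 permutations within groups (10000 in alternatives), or all orders in groups of 6 or 7 (exact). Totals of 19798965 to 65378162 counts leave counting error small for all members but Bmp10 in its low libraries. Samples were grouped by the labels, and replicates numbered in the order of the records, which pairs nothing. Each mouse is 1 library, which the design implies but the labels do not spell out.

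One gene of the list of other atrial genes is not reported here. The members and lists were chosen with earlier results of these data known. Named genes were the members, Nppa, Nppb, called list genes (at most 3 per list and contrast) or else the highest in mean CPM, and the 3 most like each member where mean log2 CPM reached 1. The limit of 10 CPM for Bmp10 in correlations and the fit without 3 libraries of Myl7 under 30 CPM were added after seeing the data.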

Additional observations from a re-analysis of the deposited data

Results flagged for a closer look

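CKD-Oxf replicate 5 stood far below the other 6 libraries of its group. Its gap to the next library, as a share of the group's whole range in CPM, was 0.646 for Myl4, 0.587 for Myl7 and 0.578 for Nppa, above the 0.568 that Dixon's test allows for 7 libraries. It held 8.85 CPM of Myl4, 5.50 of Myl7 and 85.6 of Nppa, where the other 6 held at least 264, 172 and 487 CPM. Its Tnnt2 (3261 CPM), Myl2 (1318 CPM) and Nppb (16.7 CPM) lay within the range of those 6. Of 28 groups examined, for the members and Nppa, 3 were marked where chance gives about 1.4, and all 3 come from this library and from genes that vary together.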

How the results depend on the processing

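Of 1935 values recomputed under alternatives, 1901 kept their direction and their side of the threshold, including all 242 counts of called members (0 in each) and all 202 relations to Nppa. The other 34 changed sign, all for differences that were not called. With limma voom, Bmp10 moved to 0.62 in sham-Oxf against sham-vehicle and to -1.94 in CKD-Oxf against sham-Oxf, Dkk3 to -0.032 in the latter, and Nppa to 0.32 in the interaction. The Nppa interaction, -0.03 as reported, was 0.00709 with at least 10 counts in every library, and 0.029 without the 3 libraries of lowest Myl7. Leaving those 3 out moved Stard10 to 0.11 in CKD-Oxf against CKD-vehicle and to 0.052 for gavage averaged over surgery. With Myl7 as covariate Nppa was 0.18 in CKD-Oxf against CKD-vehicle, 0.29 in the interaction and 0.037 for gavage averaged over surgery. Leaving out single libraries gave log2 fold changes of -0.28 to 0.86 for Bmp10, -0.10 to 0.63 for Dkk3 and -0.0010 to 0.78 for Stard10 in CKD-Oxf against sham-Oxf. For Stard10 the ranges were -0.23 to 0.11 in CKD-Oxf against CKD-vehicle, -0.68 to 0.13 in sham-Oxf against sham-vehicle and -0.38 to 0.020 for gavage averaged over surgery, and for the Nppa interaction -0.33 to 0.59. The cause was not tested.

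No paired analysis was possible because the replicate numbers only follow the order of the records. Bmp10 has no value with at least 10 counts in every library. The fit with the covariate covered the whole table, and its fold changes were read for Nppa and Nppb only. Only 28 of the 40 mice of the design were read, and any selection among them limits each group comparison. For the members, spread between mice and not depth sets the precision.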
